A study of Homo sapiens with 9 samples.

Results

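The nuclear genes for the mitochondrial respiratory chain and the ATP synthase were followed in insulin-resistant hepatoma cells given biomineralized insulin, soluble insulin or plain medium. Members were all protein-coding genes whose current symbol begins with NDUFA, NDUFB, NDUFC, NDUFS, NDUFV, UQCR, COX4, COX5, COX6, COX7, COX8 or ATP5, together with SDHA, SDHB, SDHC, SDHD, CYC1 and CYCS, which gave 98 genes. Of these, 93 were among the 18132 genes that the array reads with a probe set of their own, 88 passed the filter on dim signals and were tested, and 5 lay below it. The other 5 members are not analysed here. The tested members comprised 36 of 38 complex I subunit genes, all 8 complex I assembly factor genes of the NDUFAF series, 3 of 4 complex II genes, 9 of 10 complex III genes, the cytochrome c gene CYCS, 13 of 17 complex IV genes and 18 of 20 complex V genes. The former NDUFA4 and NDUFA4L2 are now COXFA4 and COXFA4L2 and fall outside the symbols used.

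Respiratory chain genes encode the proteins of the inner mitochondrial membrane that pass electrons from NADH and succinate to oxygen. Complex I oxidizes NADH and complex II succinate, ubiquinone carries their electrons to complex III, cytochrome c carries them on to complex IV, and complex V, the ATP synthase, makes ATP from the proton gradient that complexes I, III and IV build. A few subunits are encoded in mitochondrial DNA and all others in the nucleus, so each of complexes I, III, IV and V needs products of both genomes, while complex II is wholly nuclear. Liver cells depend on this machinery for the energy that gluconeogenesis and biosynthesis use.

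The cells were R-HepG2, an insulin-resistant form of the human hepatoma line HepG2. All were held overnight in serum-free DMEM and then kept for 4 h with biomineralized insulin at 40 ug/ml (BI), with insulin at 40 ug/ml, or in DMEM alone (medium), with 3 arrays in each group. The cell line tag reads HepG2 for BI and insulin samples and R-HepG2 for medium samples, whereas the culture and treatment protocols speak of R-HepG2 for all, so any difference between forms of the line cannot be told apart from the treatment. No group received the mineral without insulin, and no label says that the replicates are separate cultures, so that a p-value here speaks to the spread among these arrays alone, which may be technical.

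Hepatocyte markers did not bear out the liver label. Of 15 listed hepatocyte genes 13 had a probe set of their own, and only AHSG, APOA1, TF and TTR passed the filter of 4.74 log2, with APOA1 the brightest at a mean of 5.87. Albumin (ALB) averaged 3.40, alpha-fetoprotein (AFP) 2.93 and APOB 2.78 over the 9 arrays. The summed log2 signal of the hepatocyte list was 52.3 to 53.3 on BI arrays, 52.3 to 53.2 on insulin arrays and 52.2 to 53.3 on medium arrays. The lung epithelium list of 5 genes summed to 27.2 to 27.5 on BI arrays, 26.4 to 26.7 on insulin arrays and 26.2 to 26.8 on medium arrays, and its most changed member NKX2-1 was 0.59 log2 higher in BI than in medium. Fibroblast markers summed to 30.7 to 30.9 in BI, 30.3 to 30.8 in insulin and 30.2 to 30.4 in medium, and endothelial markers to 15.8 to 16.0 in BI, 15.8 to 16.0 in insulin and 15.4 to 16.0 in medium. Leukocyte markers summed to 12.9 to 13.2 in BI, 13.1 to 13.2 in insulin and 12.99 to 13.2 in medium. The part of these signals in the results was not tested. Array medians lay between 5.46 and 5.50 log2, and arrays correlated at 0.998 within groups and at 0.992 to 0.998 between groups. As a sign of RNA quality, actin's 3' probes exceeded its 5' probes by 3.07 ± 0.10 log2 in BI, 3.19 ± 0.08 in insulin and 3.02 ± 0.06 in medium (SD, n = 3 each), and for GAPDH the excess was 0.198 ± 0.020 in BI, 0.166 ± 0.005 in insulin and 0.162 ± 0.036 in medium.

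On the deposited scale the respiratory chain genes moved little with BI, and those called were mostly lower. Among 88 tested members, 7 rose and 32 fell against medium (limma, called at an adjusted p under 0.05, Benjamini-Hochberg over the 12239 genes tested), and every change lay between -0.36 and 0.29 log2. With the arrays centred on their poly-A spike-in controls instead, a shift of every gene alike, 0 rose and 86 fell, where 78.0% of all tested genes were called. With that centring NDUFS1 and COX7A2L both stood at -0.80, a fall of more than 1.5-fold. On the deposited scale no member reached 1.5-fold, a size that 7.11% of all tested genes reached with a call. Over all tested genes 50.9% were called in this comparison, 25.7% higher and 25.2% lower. The share of members called was 44.3%, and their split between falls (36.4% of members) and rises (7.95%) was uneven. Because 76 members had a mean of at least 10 log2, the same shares were taken over the 2085 tested genes that bright. This choice was made after the data were seen, and the shares came to 64.2% called, 31.5% higher and 32.7% lower. Beside genes that bright, members were called less often and rose less often, while their share of falls was close. These differences in share were not tested. The median change of the members was -0.042 log2, against 0.022 over all tested genes. The 3 BI arrays lay wholly below the 3 medium arrays for 40 members (27.7% of all tested genes) and wholly above them for 8 (28.9% of all tested genes). All RNA was measured in bulk, so fewer expressing cells and less RNA per cell cannot be told apart.

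Against soluble insulin the members called in BI were again mostly lower. Of the 88 members, 2 were higher and 39 lower in BI (0 and 87 with spike-in centring, where 78.5% of all tested genes were called). On the deposited scale 44.4% of all tested genes were called (21.1% higher, 23.3% lower; 58.2%, 28% and 30.2% of genes with a mean of at least 10 log2), and 75 of the 88 members had a negative difference. The median difference was -0.069 log2, against 0.018 over all tested genes. BI arrays lay wholly below insulin arrays for 46 members (26.3% of all tested genes) and wholly above for 4 (26.4%). Without BI replicate 2 the number of members called in this comparison was 24 (27.3%), against 40.2% of all tested genes. The comparison with insulin and that with medium use the same BI arrays. The 3 BI arrays lay below all 6 others for 38 members (23.5% of all tested genes) and above all 6 for 2 (22.7%).

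With soluble insulin against medium few members were called. NDUFS5 was called higher and NDUFS1 lower, 2 of 88, where 2.45% of all tested genes were called (1.25% higher, 1.2% lower), and 15 members (17.0%) had an unadjusted p under 0.05, against 15.8% of all tested genes. The median change was 0.024 log2, against 0.007 over all tested genes. Insulin arrays lay wholly above medium arrays for 8 members (9.17% of all tested genes) and wholly below for 4 (9.1%). The number called was 6, all higher, without insulin replicate 2 (3.47% of all tested genes), 0 without medium replicate 2 (0.507%) or insulin replicate 1 (1.18%) or 3 (0.466%), and 1 without medium replicate 1 (1.53%) or 3 (1.89%) or any one BI array (1.81% to 1.85%).

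Spike-in centring shifts all genes of an array by one amount. The poly-A spike-in controls averaged 7.80 ± 0.17 log2 in BI, 7.39 ± 0.06 in insulin and 7.36 ± 0.08 in medium (SD, n = 3 each), and BI replicate 2 had both the highest spike-in mean (8.002) and the lowest median of the members. Centring each array on these spike-ins moved the median of all tested genes to -0.42 log2 in BI against medium and to -0.39 against insulin. On that scale 6 of the 7 members that had risen against medium were called lower, and COX6B2 stood at -0.15 (adjusted p = 0.29). Median centring and quantile normalization reversed 0 of the named results. Median centring ended 7 calls of named genes and added 3, and quantile normalization ended 4. Directions given here are therefore relative to the bulk of the genes on the array, as the deposited scaling sets it.

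**Figure D1:**
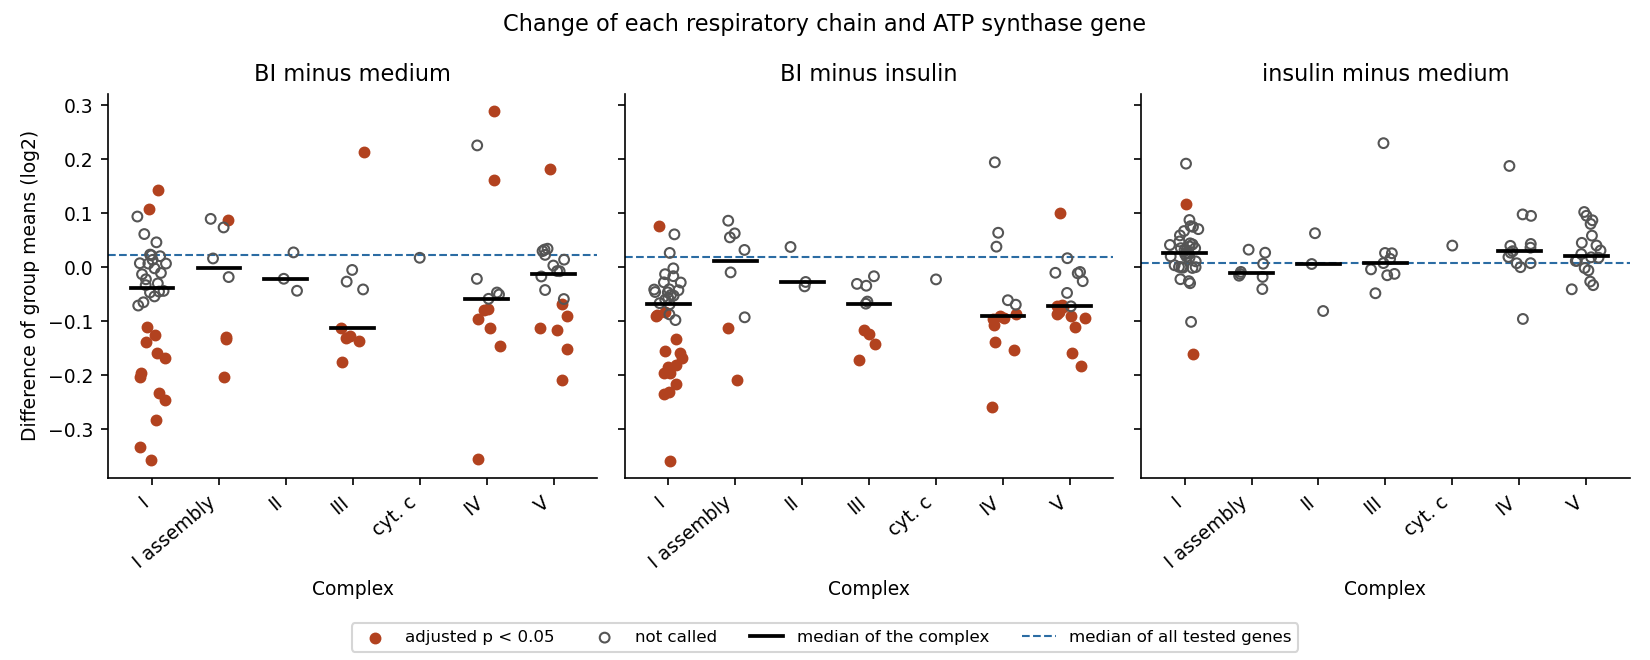
Difference of group means for each of the 88 tested genes (log2, vertical axis) by complex, for BI minus medium, BI minus insulin and insulin minus medium. Filled points passed the adjusted p threshold of 0.05, open points did not, thick bars are medians of a complex and the dashed line is the median of all tested genes: medians of complexes I to V lie below the dashed line in both BI panels, and 2 genes are filled in the insulin minus medium panel.

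Sequence upstream of the start is given for 5 members that carry the changes described below: NDUFS1 and COX7A2L, with the largest falls, UQCRC1, the largest fall whose upstream stretch holds the NRF1 letters, and ATP5MC1 and COX6B1, which rose. Each is the 250 bases before the annotated start in the RefSeq promoter table (GRCh38.p14), printed along the gene's own strand, with matches to the searched letters in capitals. The stretches are chr2:206159445-206159694 (minus strand) for NDUFS1, chr2:42361218-42361467 (minus strand) for COX7A2L, chr3:48609647-48609896 (minus strand) for UQCRC1, chr17:48892537-48892786 (plus strand) for ATP5MC1 and chr19:35648073-35648322 (plus strand) for COX6B1.
NDUFS1: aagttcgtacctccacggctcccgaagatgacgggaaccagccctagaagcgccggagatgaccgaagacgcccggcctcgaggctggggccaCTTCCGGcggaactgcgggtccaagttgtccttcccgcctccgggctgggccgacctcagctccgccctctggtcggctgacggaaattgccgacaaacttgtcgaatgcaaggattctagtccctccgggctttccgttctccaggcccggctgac
COX7A2L: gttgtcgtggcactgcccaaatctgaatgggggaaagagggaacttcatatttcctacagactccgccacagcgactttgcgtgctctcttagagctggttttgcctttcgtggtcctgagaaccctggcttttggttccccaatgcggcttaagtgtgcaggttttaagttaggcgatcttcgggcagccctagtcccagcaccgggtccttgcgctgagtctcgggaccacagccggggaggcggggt
UQCRC1: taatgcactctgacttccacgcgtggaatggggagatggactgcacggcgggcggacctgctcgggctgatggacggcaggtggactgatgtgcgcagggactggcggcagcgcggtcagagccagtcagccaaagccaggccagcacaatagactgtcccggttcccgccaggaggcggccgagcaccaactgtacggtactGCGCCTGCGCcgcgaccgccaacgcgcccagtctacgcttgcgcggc
ATP5MC1: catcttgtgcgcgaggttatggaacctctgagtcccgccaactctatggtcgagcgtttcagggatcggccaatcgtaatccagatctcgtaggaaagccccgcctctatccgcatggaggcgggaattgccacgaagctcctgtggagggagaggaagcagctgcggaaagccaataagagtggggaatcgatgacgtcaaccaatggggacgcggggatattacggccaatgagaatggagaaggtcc
COX6B1: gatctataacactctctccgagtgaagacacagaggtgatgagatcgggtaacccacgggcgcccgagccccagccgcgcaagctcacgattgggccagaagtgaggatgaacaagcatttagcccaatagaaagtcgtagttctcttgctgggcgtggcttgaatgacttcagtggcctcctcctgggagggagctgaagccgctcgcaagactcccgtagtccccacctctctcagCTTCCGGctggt

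NRF1 and GABPA are transcription factors known for activating nuclear genes of the respiratory chain. The letters searched on both strands were GCGCA, any base and GCGC for NRF1, CCGGAAG for GABPA and AAGATGG for YY1, a factor with roles in mitochondrial gene control; the GABPA and YY1 letters share AAG, so a single stretch can hold both. Of 98 members 79 were in the table. NRF1 letters stood upstream of 15 members (19.0%), against 7.65% of 15843 protein-coding genes, GABPA letters upstream of 18 (22.8%, against 11.8%) and YY1 letters upstream of 4 (5.06%, against 3.345%). Letters of the stress-response factors ATF4 (TGATGCAA) and HSF1 (GAA, TTC and GAA, each apart by a pair of any bases) were upstream of 0 members, against 0.587% and 0.3345% of all genes. Split by the change in BI against medium, NRF1 letters were upstream of 3 of 28 members that fell, 0 of 5 that rose and 10 of 41 not called, and GABPA letters upstream of 8 of 28, 1 of 5 and 8 of 41. Counting the base just before the start as position -1, the match begins at -157 in NDUFS1 (GABPA), at -47 in UQCRC1 (NRF1) and at -12 in COX6B1 (GABPA), whereas COX7A2L and ATP5MC1 hold none of the searched letters in this window. A match is a description of letters, not of a bound site.

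Complex I held the lowest change of all members against medium, in NDUFS1 of its catalytic core (-0.357 log2). COX7A2L of complex IV was level with it at -0.355. Of the 36 tested complex I subunit genes 2 rose and 12 fell against medium, with a median of -0.039 log2. Against insulin 1 was higher and 15 lower, with a median of -0.068. In shares, 33.3% were lower against medium and 41.7% against insulin, and 5.56% and 2.78% higher. Of all tested genes 25.2% and 23.3% were lower (32.7% and 30.2% with a mean of at least 10 log2), and 25.7% and 21.1% higher. The core flavin and iron-sulphur subunits, which take electrons from NADH and hand them to ubiquinone, had 4 of 6 tested genes lower and none higher in BI than in medium, with a median of -0.16 log2. Among the 30 supernumerary subunits, which surround the core, 8 fell and 2 rose, with a median of -0.026. These role groups were drawn up after the values were seen, and the difference between them was not tested.

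NDUFS1 encodes the largest iron-sulphur subunit of the core, at the NADH-oxidizing tip. Its level was 10.16, 10.19 and 10.23 log2 on BI arrays, 10.38, 10.38 and 10.40 on insulin arrays and 10.57, 10.61 and 10.47 on medium arrays. The 3 groups did not overlap, with BI lowest and insulin between. NDUFS1 fell by 0.36 ± 0.04 log2 in BI against medium (SE, limma, adjusted p = 1.0e-06), to 0.781 of its medium level, and all 5 of its probe sets were lower, the weakest at -0.22. The difference was -0.20 ± 0.04 against insulin (adjusted p = 0.00060), and -0.16 ± 0.04 for insulin against medium (adjusted p = 0.040). The call for insulin against medium was lost on leaving out any array except medium replicate 3 (adjusted p up to 0.20), and another of its probe sets stood at 0.04. Median centring ended this call as well.

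NDUFS7, an iron-sulphur subunit near the ubiquinone site, had 9.71, 9.57 and 9.81 log2 on BI arrays, 9.98, 10.07 and 10.10 on insulin arrays and 9.99, 10.00 and 10.09 on medium arrays. All BI arrays lay below the other 6, whose groups overlapped. The change was -0.33 ± 0.05 against medium (adjusted p = 6.9e-05) and -0.36 ± 0.05 against insulin (adjusted p = 4.2e-05), although 1 of its 4 probe sets stood at 0.12 against insulin. NDUFV3, a small subunit of the flavoprotein part, had 9.83, 9.84 and 9.94 in BI, 10.03, 10.08 and 10.04 in insulin and 10.14, 10.17 and 10.15 in medium, again with BI below the rest and insulin between. It fell by 0.28 ± 0.04 against medium (adjusted p = 1.2e-05). Against insulin it stood at -0.18 ± 0.04 (adjusted p = 0.0010), although 1 of its 3 probe sets stood at 0.03. With the mean of its probe sets the call against insulin was lost (adjusted p = 0.20).

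Some core and accessory subunits were singled out after their values were seen. NDUFV1, which carries the flavin that accepts electrons from NADH, was at 9.22, 9.14 and 9.19 in BI, 9.27, 9.43 and 9.36 in insulin and 9.27, 9.39 and 9.40 in medium, a change of -0.17 ± 0.05 against medium (adjusted p = 0.0092). NDUFS8, an iron-sulphur subunit, changed by -0.16 ± 0.03 on its brightest probe set (adjusted p = 0.00054), but its other probe set stood at 0.17 and the mean of both at 0.003. The core subunits NDUFV2 (-0.07 ± 0.03, adjusted p = 0.088) and NDUFS3 (0.02 ± 0.03, adjusted p = 0.64) were not called. Of the accessory subunits, NDUFB11 had 11.90, 11.81 and 11.93 in BI, 12.07, 12.17 and 12.05 in insulin and 12.13, 12.12 and 12.12 in medium, and NDUFA6 had 11.71, 11.59 and 11.61 in BI, 11.87, 11.89 and 11.85 in insulin and 11.86, 11.86 and 11.89 in medium. Another 5 accessory subunits were called lower, NDUFA13, NDUFA7, NDUFB8, NDUFB1 and NDUFB9, with changes between -0.20 and -0.11. For NDUFB11 and NDUFA6 BI lay below all other arrays, with changes of -0.25 ± 0.04 and -0.23 ± 0.03 against medium (adjusted p = 2.3e-05 and 1.4e-05).

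Both complex I genes that rose encode accessory subunits on the intermembrane space side, and both were lower with spike-in centring (-0.30 and -0.33). NDUFS5 was at 12.58, 12.53 and 12.57 in BI, 12.54, 12.51 and 12.54 in insulin and 12.39, 12.45 and 12.41 in medium. Both treated groups lay above medium and overlapped each other. It rose by 0.14 ± 0.03 in BI (adjusted p = 0.00024) and by 0.12 ± 0.03 in insulin (adjusted p = 0.031), a call lost without any one medium array or without insulin replicate 1 or 3 (adjusted p up to 0.14), and also with only the 6 arrays compared or after quantile normalization. NDUFA8 was at 12.03, 11.95 and 12.01 in BI, 11.92, 11.94 and 11.91 in insulin and 11.89, 11.92 and 11.86 in medium, a rise of 0.11 ± 0.03 over medium (adjusted p = 0.0059), with BI above all other arrays. With the mean of its probe sets the call was lost (adjusted p = 0.059), and its call against insulin (0.08, adjusted p = 0.047) was lost on leaving out any array except medium replicate 3 and BI replicate 2 (adjusted p up to 0.18). Median centring and quantile normalization ended the call against insulin too.

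**Figure D2:**
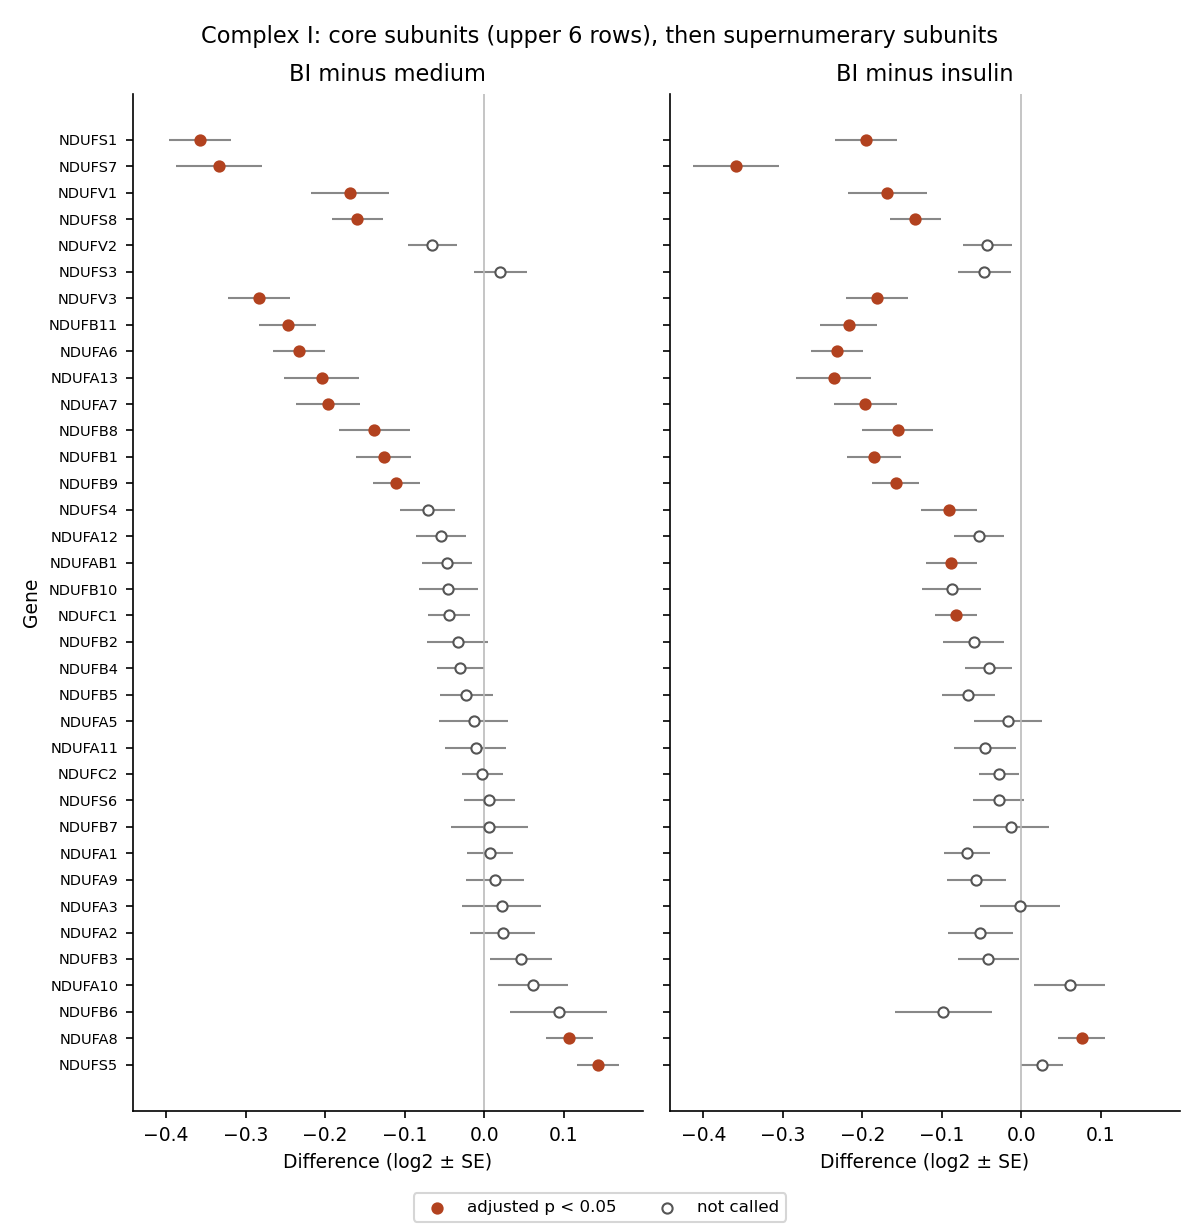
Difference in log2 (horizontal axis, point ± SE, 3 arrays per group) for each complex I subunit gene, BI minus medium on the left and BI minus insulin on the right. The 6 core genes stand above the supernumerary ones, filled points passed the adjusted p threshold of 0.05, and 4 of the 6 core genes are filled and negative in both panels.

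The complex I assembly factors, which build the enzyme without staying in it, moved both ways. Of 8, 3 fell (37.5%, against 25.2% of all tested genes) and 1 rose (12.5%, against 25.7%) in BI against medium. Against insulin 2 were lower (25%, against 23.3% of all tested genes). NDUFAF7, a methyltransferase, was at 8.37, 8.34 and 8.43 in BI, 8.50, 8.62 and 8.66 in insulin and 8.51, 8.69 and 8.55 in medium, a change of -0.20 ± 0.06 against medium (adjusted p = 0.0066), with all BI arrays lowest. The weakest of its 3 probe sets stood at -0.03 against medium, and leaving out single arrays took the adjusted p up to 0.049. NDUFAF2 changed by -0.13 ± 0.04 (adjusted p = 0.0070) and NDUFAF3 by -0.13 ± 0.04 (adjusted p = 0.011, and 0.058 without BI replicate 2). NDUFAF8 was called higher at 0.09 ± 0.03 (adjusted p = 0.033), a call lost on leaving out any medium array or BI replicate 1 or 3 (adjusted p up to 0.13). It was also lost with median centring. NDUFAF1, NDUFAF4, NDUFAF5 and NDUFAF6 were not called.

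Complex II, succinate dehydrogenase, which also belongs to the TCA cycle, had no member called in any comparison on the deposited scale. With spike-in centring SDHC was called lower in BI against medium (-0.41) and SDHD in BI against insulin (-0.38). SDHA, the flavoprotein subunit, had 11.80, 11.78 and 11.83 in BI, 11.75, 11.87 and 11.87 in insulin and 11.78, 11.85 and 11.84 in medium. The membrane anchor SDHC had 10.53, 10.50 and 10.48 in BI, 10.52, 10.56 and 10.54 in insulin and 10.47, 10.47 and 10.49 in medium, and the other anchor SDHD had 10.56, 10.58 and 10.59 in BI, 10.51, 10.57 and 10.53 in insulin and 10.58, 10.64 and 10.64 in medium. The BI arrays overlapped both other groups for all 3 genes. Their changes in BI against medium were -0.02 ± 0.03, 0.03 ± 0.03 and -0.04 ± 0.03 (adjusted p = 0.63, 0.50 and 0.29), and each gene had at least 1 probe set of the opposite sign.

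In complex III, which passes electrons from ubiquinol to cytochrome c, 5 of 9 tested genes fell and 1 rose against medium, with the lowest median of the complexes at -0.11 log2. Against insulin 4 were lower and none higher, with a median of -0.068. Lower were thus 55.6% against medium and 44.4% against insulin, where 25.2% and 23.3% of all tested genes were lower. Genes with a mean of at least 10 log2 were lower in 32.7% and 30.2%. All 3 tested genes of the core proteins and cytochrome c1 fell against medium. UQCRC1, a core protein, had 10.74, 10.75 and 10.81 in BI, 10.91, 11.05 and 10.85 in insulin and 10.88, 10.99 and 10.94 in medium, so that BI was lowest and the others overlapped. It changed by -0.18 ± 0.05 against medium (adjusted p = 0.0041) and by -0.17 ± 0.05 against insulin (adjusted p = 0.0056). UQCRC2, the other core protein, had 11.11, 11.12 and 11.16 in BI, 11.21, 11.29 and 11.26 in insulin and 11.23, 11.27 and 11.29 in medium, a change of -0.14 ± 0.03 (adjusted p = 0.0021). BI again lay below the other 6 arrays.

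CYC1, the haem-bearing cytochrome c1, was at 11.85, 11.81 and 11.81 in BI, 11.86, 11.96 and 11.84 in insulin and 11.86, 11.96 and 11.98 in medium. BI lay below medium but touched the insulin range, and the change of -0.11 ± 0.04 against medium (adjusted p = 0.019) was lost without medium replicate 2 or 3 or BI replicate 2 or 3 (adjusted p up to 0.082). The small subunit UQCR11 changed by -0.13. Another, UQCRQ, changed by -0.13 ± 0.03 (adjusted p = 0.0016) on its brightest probe set, while its 2 other probe sets had the opposite sign, up to 0.13, and the mean of the 3 stood at 0.004. UQCRHL, a near copy of the hinge protein gene UQCRH whose probes may read both, was at 11.74, 11.54 and 11.65 in BI, 11.76, 11.42 and 11.80 in insulin and 11.47, 11.36 and 11.47 in medium. It rose by 0.21 ± 0.07 over medium (adjusted p = 0.024), a call lost without medium replicate 2 or BI replicate 1 or 3 (adjusted p up to 0.13), and BI and insulin overlapped. Median centring also ended the call over medium. CYCS, the mobile carrier between complexes III and IV, had 12.58, 12.61 and 12.61 in BI, 12.62, 12.59 and 12.67 in insulin and 12.69, 12.51 and 12.55 in medium, which overlapped, and was not called (0.02 ± 0.04 against medium, adjusted p = 0.73).

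Complex IV, cytochrome c oxidase, had 2 genes higher and 6 lower of 13 tested in BI against medium (median -0.059 log2). Against insulin none was higher and 8 were lower (median -0.090). Lower were thus 46.2% and 61.5%, where 25.2% and 23.3% of all tested genes were lower. Genes with a mean of at least 10 log2 were lower in 32.7% and 30.2%. COX7A2L, known as a factor that joins complexes III and IV into supercomplexes, fell most. It was at 10.88, 10.82 and 10.85 in BI, 11.09, 11.12 and 11.12 in insulin and 11.18, 11.23 and 11.21 in medium. None of the groups overlapped, and insulin lay between. The fall was 0.36 ± 0.03 log2 against medium (adjusted p = 7.6e-08), to 0.782 of the medium level, with a difference of -0.26 ± 0.03 against insulin (adjusted p = 3.6e-06), and it held its call under every alternative run. Insulin against medium stood at -0.10 ± 0.03 and was not called (adjusted p = 0.12).

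Among the 10 widely expressed nuclear subunits of complex IV 5 fell and 1 rose against medium. COX5B, a zinc-binding subunit, was at 11.64, 11.63 and 11.63 in BI, 11.72, 11.82 and 11.78 in insulin and 11.74, 11.77 and 11.73 in medium, a change of -0.11 ± 0.03 (adjusted p = 0.0057) with BI below all 6 other arrays. COX8A, a small membrane subunit, was at 12.51, 12.38 and 12.45 in BI, 12.56, 12.66 and 12.59 in insulin and 12.57, 12.61 and 12.61 in medium, a change of -0.15 ± 0.03 (adjusted p = 0.0017), with BI again lowest. COX4I1, the regulatory subunit that binds ATP, was called at -0.08 ± 0.03 (adjusted p = 0.034) on its brightest probe set, but another probe set of the gene stood at 0.24, and the call was lost without any one medium array or BI replicate 2 (adjusted p up to 0.16). COX6A1 changed by -0.10 ± 0.02 (adjusted p = 0.0026), with its other probe set at 0.13. COX5A, the partner of COX5B, changed by -0.08, and COX7A2, the regular complex IV subunit of the COX7A family, was not called (-0.05 ± 0.03, adjusted p = 0.16).

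COX6B1, which sits at the dimer interface facing the intermembrane space, was higher in BI than in medium, though lower with spike-in centring (-0.28). It was at 12.51, 12.40 and 12.47 in BI, 12.34, 12.46 and 12.39 in insulin and 12.29, 12.25 and 12.35 in medium, with BI above medium and across the insulin range. The rise was 0.16 ± 0.04 over medium (adjusted p = 0.0014), and 0.06 ± 0.04 over insulin was not called (adjusted p = 0.18). The tissue isoforms were dim. Of the isoforms known from heart, muscle, lung or testis, COX4I2 averaged 4.43 ± 0.05 log2 in BI, 4.53 ± 0.08 in insulin and 4.35 ± 0.10 in medium (SD, n = 3), and COX7A1 4.02 ± 0.09 in BI, 4.01 ± 0.21 in insulin and 4.06 ± 0.12 in medium. COX7B2, at 2.46 over the 9 arrays, and COX8C, at 3.45, lay below the filter as well. COX6A2, the heart and muscle form, was at 6.01, 5.93 and 6.14 in BI, 5.89, 6.22 and 5.86 in insulin and 5.60, 5.91 and 5.90 in medium and was not called (0.23 ± 0.11 against medium, adjusted p = 0.087), although its BI arrays lay above the medium arrays. COX6B2, a testis form named here after its values were seen, was at 6.08, 6.02 and 6.18 in BI, 5.82, 5.93 and 5.93 in insulin and 5.68, 5.65 and 6.07 in medium, and was called higher than medium (0.29 ± 0.10, adjusted p = 0.022) with overlapping groups, a call lost without medium replicate 1 or 2 or BI replicate 3 (adjusted p up to 0.11). The cardiac and skeletal muscle marker list summed to 14.2 to 14.9 log2 on BI arrays, 13.9 to 14.1 on insulin arrays and 13.8 to 14.0 on medium arrays, with only ACTA1 of its 4 listed genes above the filter, and its part in these isoform values was not tested. COXFA4, the complex IV subunit formerly NDUFA4, was at 12.65, 12.60 and 12.65 in BI, 12.60, 12.72 and 12.64 in insulin and 12.65, 12.69 and 12.71 in medium and was not called (adjusted p = 0.19 against medium).

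**Figure D3:**
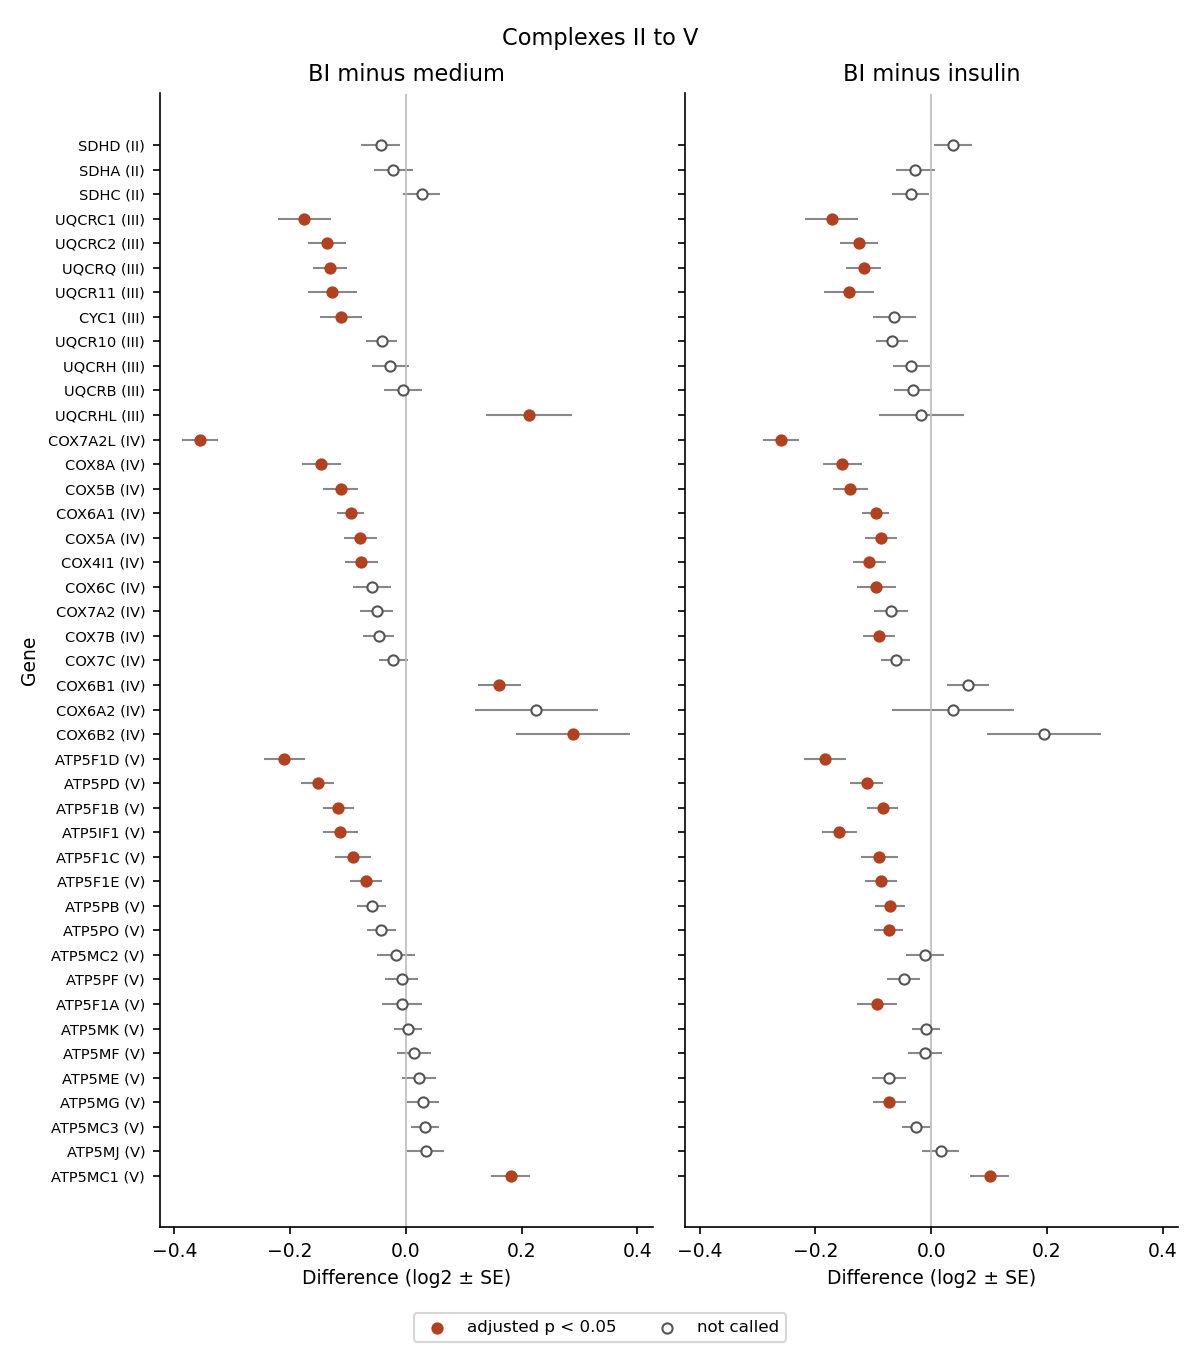
Difference in log2 (horizontal axis, point ± SE, 3 arrays per group) for each tested gene of complexes II to V, BI minus medium on the left and BI minus insulin on the right, grouped by the complex given in brackets. Filled points passed the adjusted p threshold of 0.05; COX7A2L at -0.36 is the lowest point of the left panel, and no complex II gene is filled.

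In complex V, the ATP synthase, 1 of 18 tested genes was higher and 6 lower in BI than in medium (median -0.012 log2). Against insulin 1 was higher and 10 lower (median -0.072). The share lower against medium, 33.3%, was near the 32.7% of genes with a mean of at least 10 log2 (25.2% of all tested genes). Against insulin it was 55.6%, where 30.2% of genes that bright and 23.3% of all tested genes were lower. The 5 genes of the F1 head and central stalk, where ATP is made, were lower in 4 cases against medium and in all 5 against insulin. The 4 peripheral stalk genes gave 1 fall against medium and 3 against insulin, and of the 5 tested small membrane subunit genes none was called against medium and 1 was lower against insulin. ATP5MGL, a further small membrane gene, lay below the filter at 4.06 ± 0.16 log2 in BI, 3.86 ± 0.22 in insulin and 3.89 ± 0.04 in medium (SD, n = 3).

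ATP5F1D, the delta subunit of the central stalk, had 10.25, 10.25 and 10.30 in BI, 10.40, 10.50 and 10.44 in insulin and 10.46, 10.47 and 10.50 in medium, with BI below the other 6 arrays. It changed by -0.21 ± 0.04 against medium (adjusted p = 0.00012) and by -0.18 ± 0.04 against insulin (adjusted p = 0.00051). ATP5F1B, the catalytic beta subunit, had 12.95, 12.96 and 13.002 in BI, 13.04, 13.06 and 13.07 in insulin and 13.05, 13.07 and 13.14 in medium, a change of -0.12 ± 0.03 against medium (adjusted p = 0.0015), with BI lowest. The gamma subunit ATP5F1C changed by -0.09 and the epsilon subunit ATP5F1E by -0.07. ATP5F1A, the alpha subunit, had 13.01, 13.03 and 13.03 in BI, 13.19, 13.04 and 13.12 in insulin and 13.09, 13.01 and 12.99 in medium. It overlapped medium (-0.01 ± 0.03, adjusted p = 0.88), and its call against insulin (-0.09 ± 0.03, adjusted p = 0.035) was lost without insulin replicate 1 or 3 or any one BI array (adjusted p up to 0.21).

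ATP5PD, of the peripheral stalk, had 11.68, 11.65 and 11.68 in BI, 11.77, 11.80 and 11.78 in insulin and 11.85, 11.84 and 11.78 in medium. BI was lowest throughout, with a change of -0.15 ± 0.03 against medium (adjusted p = 0.00029). ATP5IF1, the inhibitor that stops the enzyme from running backwards, had 12.72, 12.76 and 12.81 in BI, 12.90, 12.88 and 12.99 in insulin and 12.87, 12.88 and 12.88 in medium. It too was lowest in BI, at -0.11 ± 0.03 against medium (adjusted p = 0.0051, and 0.064 after quantile normalization) and -0.16 ± 0.03 against insulin (adjusted p = 0.00042).

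The 3 genes of the c ring, the rotor through which protons pass, encode the same mature protein behind different import signals. On the deposited scale only ATP5MC1 was called, and it was higher. With spike-in centring ATP5MC1 was called lower against medium (-0.26), and so was ATP5MC3 (-0.41). ATP5MC1 had 11.86, 11.85 and 11.85 in BI, 11.73, 11.73 and 11.80 in insulin and 11.75, 11.65 and 11.62 in medium. BI lay above all 6 other arrays, which overlapped. The rise was 0.18 ± 0.03 over medium (adjusted p = 0.00029) and 0.10 ± 0.03 over insulin (adjusted p = 0.024), the call over insulin being lost without insulin replicate 1 or 2 or any one BI array (adjusted p up to 0.087). Median centring ended the call over insulin too. ATP5MC2, at 12.31, 12.26 and 12.33 in BI, 12.24, 12.38 and 12.31 in insulin and 12.31, 12.31 and 12.33 in medium, was not called (-0.02 ± 0.03 against medium, adjusted p = 0.69). ATP5MC3 had 13.05, 13.01 and 13.03 in BI, 13.03, 13.06 and 13.06 in insulin and 13.02, 12.98 and 12.97 in medium and was not called either (0.03 ± 0.02, adjusted p = 0.28). The difference between the c ring genes was not tested.

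**Figure D4:**
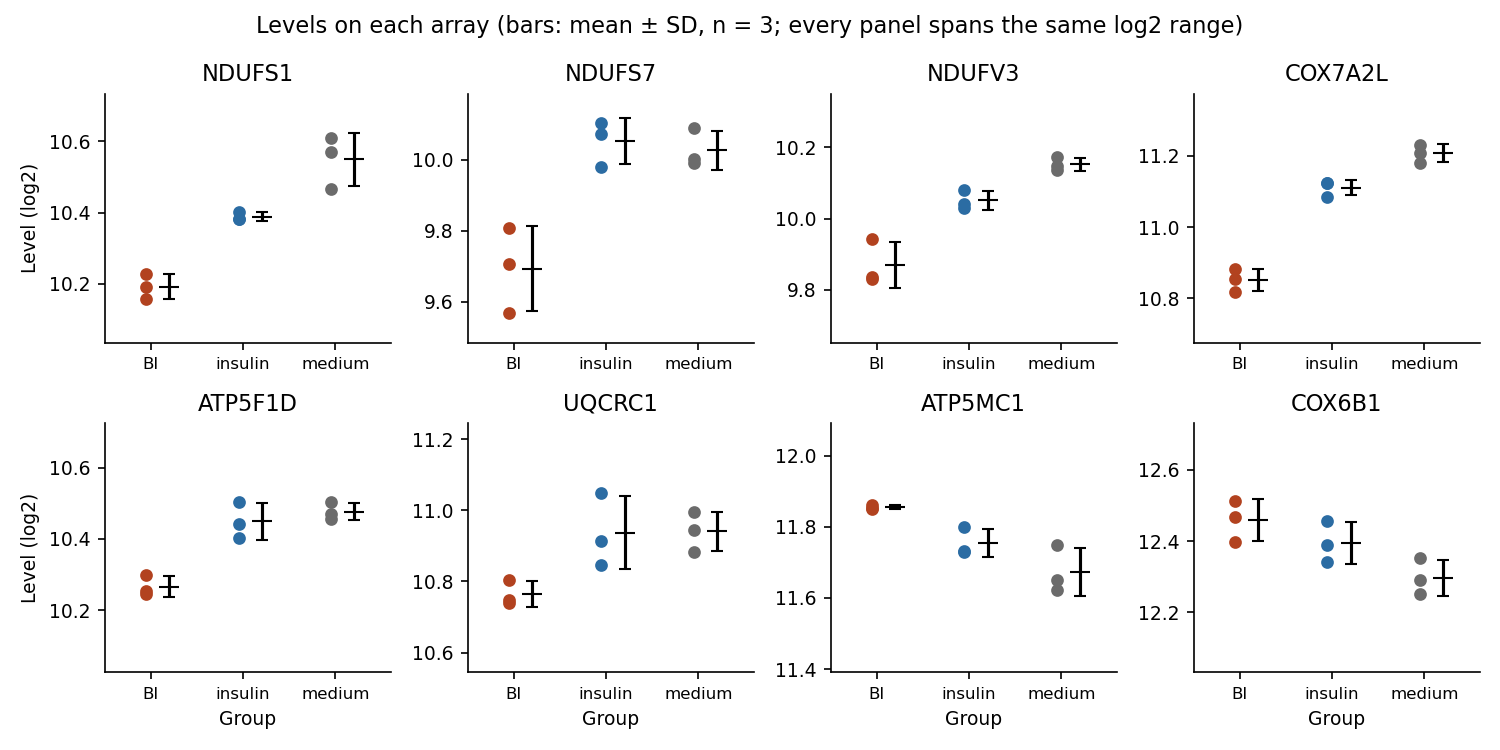
Level (log2, vertical axis) of 8 members on each array, with BI, insulin and medium from left to right, points for arrays and bars for mean ± SD (n = 3). Every panel spans an equal log2 range; BI lies below medium in the first 6 panels and above it for ATP5MC1 and COX6B1, which are lower with spike-in centring, and insulin lies between them for NDUFS1, NDUFV3 and COX7A2L.

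Set side by side, complexes I, III, IV and V were lowest on BI arrays and complex II was not. The median deviation of complex I genes from their mean over the 9 arrays was -0.022, -0.088 and -0.019 log2 on BI arrays, -0.004, 0.072 and 0.043 on insulin arrays and -0.001, 0.005 and 0.008 on medium arrays. For complex IV it was -0.033, -0.079 and -0.027 on BI arrays, 0.012, 0.066 and 0.055 on insulin arrays and 0.024, 0.007 and 0.014 on medium arrays. For complex III it was -0.007, -0.079 and -0.055 on BI arrays, -0.002, 0.060 and 0.024 on insulin arrays and -0.004, 0.048 and 0.027 on medium arrays. For complex V it was -0.015, -0.059 and -0.007 on BI arrays, 0.004, 0.026 and 0.041 on insulin arrays and 0.004, -0.003 and -0.001 on medium arrays. BI arrays lay below both other groups in complexes I, III, IV and V, in complexes III and V by a margin of a few thousandths, and in complex II all groups overlapped. BI replicate 2 was the lowest array in complexes I, III, IV and V. Insulin replicates 2 and 3 lay above all medium arrays in complexes I, IV and V, and insulin replicate 1 did not in complexes I and IV. Relative to the median of all tested genes, the complex medians in BI against medium were -0.061 for I, -0.044 for II, -0.134 for III, -0.081 for IV and -0.034 for V, with a spread between arrays of a group of 0.029, 0.040, 0.030, 0.020 and 0.017 (pooled SD). No test was made between complexes.

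**Figure D5:**
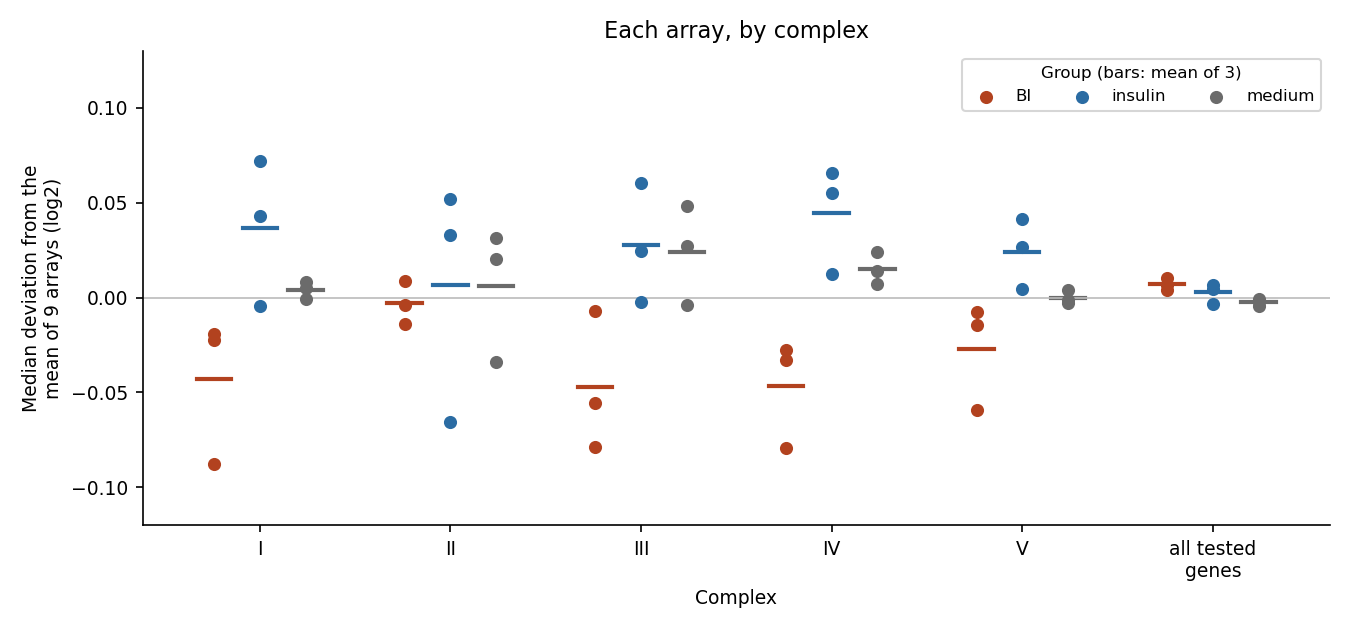
Median deviation of each complex's genes from their mean over the 9 arrays (log2, vertical axis), with a point for each array and a bar for the mean of 3, BI, insulin and medium from left to right. All tested genes are shown at the right and lie between -0.004 and 0.010; BI means are -0.043 in complex I, -0.003 in II, -0.047 in III, -0.047 in IV and -0.027 in V.

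Of the 13 subunits encoded in mitochondrial DNA 3 had a tested probe set. In BI against medium 2 of the 3 were higher and none lower, where 25.7% of all tested genes were higher and 25.2% lower. With spike-in centring COX3 was called lower (-0.32) and ND1 stood at -0.20 (adjusted p = 0.082). ND1, a complex I core subunit, averaged 12.05 ± 0.07 log2 in BI and 11.81 ± 0.05 in medium (SD, n = 3 each), a rise of 0.24 ± 0.04 (SE, adjusted p = 0.00024). COX3, of complex IV, averaged 13.27 ± 0.03 in BI and 13.14 ± 0.07 in medium (0.13 ± 0.05, adjusted p = 0.032), a call lost without medium replicate 2 or 3 or BI replicate 1 or 3 (adjusted p up to 0.14). Median centring ended the COX3 call as well. ND4, of complex I, averaged 13.97 ± 0.05 in BI and 13.93 ± 0.01 in medium and was not called against medium (0.04 ± 0.02, adjusted p = 0.15). Against insulin ND1 was higher (0.27 ± 0.04, adjusted p = 0.00011), and COX3 was not called (-0.01 ± 0.05, adjusted p = 0.86). ND4 was called higher than in insulin (0.07 ± 0.02, adjusted p = 0.031). That call was lost without insulin replicate 1 or 3 or BI replicate 2 or 3 (adjusted p up to 0.145). Median centring and quantile normalization ended it too. 

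Neighbouring gene lists of the same organelle held larger single changes. Over all tested genes 25.7% were higher and 25.2% lower in BI against medium. Assembly factors of complexes I to V, which include the NDUFAF genes, had 11 of 54 tested genes higher (20.4%) and 17 lower (31.5%). Their changes ranged from -0.84 to 0.51 log2. The low end was COX19, a protein of complex IV assembly, at 8.09 ± 0.05 in BI and 8.92 ± 0.07 in medium (adjusted p = 8.1e-10). COX19 has 4 probe sets, and the weakest stood at -0.12. The high end was COA4, another complex IV assembly factor with 1 probe set, at 11.73 ± 0.04 in BI and 11.21 ± 0.02 in medium (adjusted p = 5.5e-10, not called with spike-in centring). Mitochondrial ribosomal protein genes had 22 of 74 higher (29.7%) and 24 lower (32.4%), between -0.63 and 0.69. Their median level was 10.3 log2, and of genes with a mean of at least 10 log2 31.5% were higher and 32.7% lower. TCA cycle and pyruvate dehydrogenase genes had 2 of 16 higher and 7 lower (median -0.057), genes that feed or make ubiquinone 4 of 20 higher and 12 lower (median -0.17), and genes for adenine nucleotide and phosphate exchange 3 of 6 higher and 1 lower. Regulators of mitochondrial gene expression had 4 of 12 higher and 2 lower. TFB2M (0.31 ± 0.04, adjusted p = 7.6e-06), PPRC1 (0.22 ± 0.05, adjusted p = 0.0011) and TWNK (0.20 ± 0.05, adjusted p = 0.0049) were higher. The weakest probe set of TWNK stood at 0.03. PPARGC1A, a coactivator of mitochondrial biogenesis, was lower, at 8.31 ± 0.05 in BI and 8.66 ± 0.07 in medium (-0.35 ± 0.05, adjusted p = 2.2e-05). The weakest of its 4 probe sets stood at -0.03. Differences between these lists and the respiratory chain genes were not tested.

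Probe sets of a gene did not always move together. Of the 39 members called in BI against medium 26 had several probe sets, and 6 of those (NDUFA13, NDUFB9, NDUFS8, UQCRQ, COX4I1 and COX6A1) had at least 1 of opposite sign. Against insulin it was 11 of 30. The brightest probe set of 39 tested members has a name ending in _x_at or _s_at, marks of probes that may read related sequences or several transcripts, and many of these genes have processed pseudogenes: 193 pseudogenes carry symbols of the series named above, none with a probe set of its own here.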

How the data were processed

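RNA of 9 R-HepG2 samples was hybridised to GeneChip 3' IVT arrays after biotin labelling of cRNA, per the labels' protocols. The authors deposited normalized log2 signals per probe set, which ran from 2.02 to 14.34; for the software that made them the sources used here give no name, and detection calls and scanner files were not used. Arrays have no read depth, so their number sets the precision. Of 49395 features, 44988 name 1 gene in the platform annotation, 1832 several, 2473 none, and 102 are controls; 44961 symbols were updated through RefSeq's Entrez identifiers and 27 kept as listed. Each gene was read by its brightest single-gene probe set, and genes in the dimmest 40% by mean were left out, which gave 12239 tested genes. Differences were fitted with limma 3.58.1 under R 4.3.3 on all 9 arrays (6 residual degrees of freedom), using lmFit, then eBayes and its intensity trend, and called where the adjusted p (Benjamini-Hochberg, all tested genes) was under 0.05. On data simulated for BI against medium over 12239 genes, 74% of genes raised by 0.4 log2 and 30% of those raised by 0.2 were recovered. The simulation changed only a small part of the genes, whereas 50.9% were called in the data. Its recovery therefore does not measure the power in the data.

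Groups follow the treatment labels. Replicate numbers were checked for pairing: deviations of same-numbered samples correlated at -0.234 to 0.167, and no pairing was assumed. The members, the gene lists and the tests were chosen with earlier results of these data known. In each complex the text names up to 3 called members that rose and up to 3 that fell most against medium without overlap. It also names all complex II genes, CYCS, a fixed set chosen by role and the members called in insulin against medium. From the neighbouring lists it names some genes of lowest p among the mitochondrial DNA subunits, the assembly factors and the regulators. No gene of the other neighbouring lists is named. NDUFV1, NDUFV2, NDUFS3, NDUFS8, NDUFB11, NDUFA6, COX6B2 and the members given by a change alone were added after their values were seen. Alternatives covered the filter, the choice of probe set, normalization, spike-in centring, weights, the replicate block and leaving out each array. Tables and figures were made with python 3.11.15, pandas 2.3.3, numpy 2.4.6 and matplotlib 3.10.9.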

Additional observations from a re-analysis of the deposited data

Results flagged for a closer look

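The poly-A spike-in control features, which no comparison of genes uses, were brighter on the BI arrays. Their mean log2 signal was 7.68, 8.002 and 7.73 on BI arrays, higher than on every insulin and medium array, by 0.441 log2 against medium and by 0.413 against insulin. These controls drew attention because they lie outside the main measurement and differ from their level in medium. Their part in the results was not tested beyond centring the arrays on them.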

How the results depend on the processing

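With spike-in centring 86 members were called against medium and 87 against insulin, all lower in BI, where 78.0% and 78.5% of all tested genes were called, and 0 in insulin against medium. The calls in BI against insulin numbered 20 without the intensity trend (22.7% of members, against 41.7% of all tested genes) and 23 at an adjusted p of 0.01 (26.1%, against 34.4%). Those in insulin against medium numbered 5 with array weights, 0 without the trend, with only the 6 arrays compared or at 0.01, and 1 with median centring, no brightness filter, the probe set of largest variance, quantile normalization, the replicate block or without _x_at and _s_at probe sets. With the replicate block 39, 40 and 1 members were called in the 3 comparisons, and it ended the calls of NDUFS1 (adjusted p = 0.063) and NDUFS5 (adjusted p = 0.051) in insulin against medium, where UQCRHL was called instead (0.23, adjusted p = 0.020). In BI against insulin it ended the NDUFA8 call (adjusted p = 0.063) and added a call of COX7A2, and it changed no other call of a named gene. Leaving out single arrays gave 31 to 40, 24 to 42 and 0 to 6 calls.

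The medians of a complex relative to all tested genes moved by more than the array spread in some settings. In BI against medium, leaving out the dimmest 60% gave -0.014 for V and -0.045 for all members, the mean of all probe sets -0.035 for IV and -0.073 for V, the probe set of largest variance -0.181 for III, -0.051 for IV and -0.070 for V, quantile normalization -0.111 for IV and -0.060 for V, and omitting _x_at and _s_at probe sets 0.036 for II, -0.040 for IV and -0.052 for V. In BI against insulin, the dimmest 60% gave -0.071 for V and -0.069 for all members, the mean -0.0022 for II and -0.072 for IV, and omitting _x_at and _s_at 0.090 for II and -0.119 for III. In insulin against medium, the mean gave -0.065 for II and -0.033 for III, the largest variance -0.057 for II and -0.075 for III, and omitting _x_at and _s_at -0.055 for II and -0.0040 for V. Leaving out single arrays in BI against medium gave -0.069 to -0.040 for all members, -0.074 to -0.039 for I, -0.060 to -0.027 for II, -0.145 to -0.093 for III, -0.102 to -0.065 for IV and -0.050 to -0.027 for V. In BI against insulin it gave -0.094 to -0.067, -0.105 to -0.064, -0.060 to -0.021, -0.126 to -0.075, -0.117 to -0.092 and -0.102 to -0.069 in the same order, and in insulin against medium 0.003 to 0.029, 0.008 to 0.043, -0.021 to 0.033, -0.027 to 0.019, 0.015 to 0.033 and 0.007 to 0.029.

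Some named genes turned sign. Spike-in centring, which shifts every gene alike, gave in BI against medium -0.26 for ATP5MC1, -0.41 for ATP5MC3, -0.32 for COX3, -0.28 for COX6B1, -0.15 for COX6B2, -0.42 for CYCS, -0.20 for ND1, -0.40 for ND4, -0.33 for NDUFA8, -0.35 for NDUFAF8, -0.42 for NDUFS3, -0.30 for NDUFS5, -0.41 for SDHC and -0.23 for UQCRHL. In BI against insulin it gave -0.31 for ATP5MC1, -0.04 for COA4, -0.37 for COX6A2, -0.35 for COX6B1, -0.14 for ND1, -0.34 for ND4, -0.34 for NDUFA8, -0.36 for NDUFAF8, -0.39 for NDUFS5 and -0.38 for SDHD. The mean of all probe sets gave 0.027 for COX4I1, 0.019 for COX6A1, 0.0029 for NDUFS8 and 0.0036 for UQCRQ against medium, and 0.055 for COX4I1 against insulin. The probe set of largest variance gave 0.24 for COX4I1, 0.13 for COX6A1, 0.17 for NDUFS8 and 0.012 for UQCRQ against medium, 0.36 for COX4I1, 0.013 for COX6A1 and 0.083 for UQCRQ against insulin, and 0.039 for NDUFS1 in insulin against medium. Without _x_at and _s_at probe sets COX4I1 stood at 0.24 against medium and 0.36 against insulin, and COX6A1 at 0.13 and 0.013. Apart from the sign turns that the choice of probe set or the shift itself produces, the cause was not tested. Of 67 calls for named genes 50 survived the removal of any 1 array and 39 held in every setting other than spike-in centring. The small size of the changes, the 3 arrays a group and probes that may read related sequences limit what can be read from single genes.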
